A study of Mus musculus with 30 samples.

Results

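The genes described here build cholesterol, control its synthesis, or carry it into, through and out of cells, and 31 such genes were listed by symbol. Of these, 29 had a probe set (a group of short probes read as 1 signal) that the platform annotation gives to that symbol alone, out of 18193 genes on the array with such a probe set, and they were read by 66 probe sets. They comprised 17 enzymes of synthesis (Hmgcs1, Mvk, Pmvk, Mvd, Idi1, Fdps, Fdft1, Sqle, Lss, Cyp51, Tm7sf2, Msmo1, Nsdhl, Hsd17b7, Ebp, Sc5d and Dhcr7), 5 regulators (Srebf1, Srebf2, Scap, Insig1 and Insig2) and 7 genes of transport (Abca1, Abcg1, Lrp1, Lrpap1, Npc1, Npc2 and Stard4). Acat2 and Soat1 were not analysed here.

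RNA was read on 30 arrays of the Affymetrix Mouse Genome 430 2.0 design. Of these, 22 held RNA of neurospheres, floating cultures of neural progenitors. These were grown from ganglionic eminences of embryos at E14.5 with EGF and bFGF in medium without serum. Every neurosphere culture, controls included, lacked Ink4a/Arf on both alleles, carried the mutant human receptor EGFRvIII from a retrovirus given at passage 1, and had been selected with puromycin. By genotype there were 3 Olig1/2+/+ cultures (wild-type below, lines 2, 3 and 20), 3 Olig1/2+/- cultures (heterozygous, lines 11, 15 and 26) and 6 Olig1/2-/- cultures (null, lines 12, 13, 14, 16, 21 and 24), and wild-type and heterozygous cultures together are called Olig-expressing. Heterozygous lines 11 and 15 and null lines 12, 13 and 14 were also given a retrovirus for GFP or for Olig2 at passage 3 and selected with blasticidin, which gave 2 heterozygous and 3 null arrays for each virus. Forebrain and spinal cord of 4 embryos at E18.5 gave 8 further arrays, with 2 embryos labelled Olig2 -/- and 2 labelled Olig2 +/-, where the series design names Olig1/2. The tissue labels give no Ink4a/Arf genotype. Replicates were separate lines or embryos, of mixed Swiss and C57BL/6J background. Neurospheres were harvested between passages 4 and 15, and which passage each array held is not stated in the labels.

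Cells make cholesterol from acetyl-CoA through mevalonate, isoprenoids, squalene and lanosterol. The SREBP transcription factors, encoded by Srebf1 and Srebf2, turn these genes on after SCAP escorts them out of the endoplasmic reticulum, and INSIG proteins hold SCAP back when sterols are plentiful. In the brain cholesterol is made locally, and myelin formation by oligodendrocytes draws heavily on it, while ApoE particles, receptors of the LDL receptor family and the lysosomal proteins NPC1 and NPC2 move it between and within cells. Olig1 and Olig2, of the basic helix-loop-helix class, bind DNA and specify oligodendrocyte precursors.

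RefSeq promoters of build GRCm38.p6, from 250 bases before to 50 bases after a start, were matched for 23 of the 29 genes, with 31 promoters in all because some genes have several starts. The CCAAT box (CCAAT, both strands), which NF-Y binds and which is common beside SREBP sites, was in 14 of 17 promoters of synthesis genes (82.4%), in 5 of 10 of regulators (50%) and in 1 of 4 of transport genes (25%), against 37.4% of all 32851 promoters. The E-box (CANNTG, both strands), the letters that basic helix-loop-helix factors bind, was in 27 of 31 promoters (87.1%), against 72.3% of all. Its form CACGTG, counted within CANNTG as well, was in 7 of 31 (22.6%), against 7.15% of all. A sterol regulatory element (TCACNCCAC, both strands) was in the promoter of Hmgcs1 alone, 1 of 31 (3.23%), against 1.24% of all. These are matches of letters, promoters of 1 gene can overlap, and nothing here measured binding. For the 3 genes that were lower with the label Olig2 virus in null lines, the 250 bases before the start are shown on the gene's strand, 5′ to 3′, with E-boxes in capitals. They lie at chr5:35105700-35105949 (minus strand) for Lrpap1, chr12:84773113-84773362 (minus) for Npc2 and chr5:28071162-28071411 (plus) for Insig1, with 2, 1 and 2 E-boxes.
Lrpap1: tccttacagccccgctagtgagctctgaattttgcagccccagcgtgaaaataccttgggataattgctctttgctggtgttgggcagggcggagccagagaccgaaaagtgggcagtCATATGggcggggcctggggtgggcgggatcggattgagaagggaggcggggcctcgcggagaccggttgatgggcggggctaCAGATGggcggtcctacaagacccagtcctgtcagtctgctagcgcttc
Npc2: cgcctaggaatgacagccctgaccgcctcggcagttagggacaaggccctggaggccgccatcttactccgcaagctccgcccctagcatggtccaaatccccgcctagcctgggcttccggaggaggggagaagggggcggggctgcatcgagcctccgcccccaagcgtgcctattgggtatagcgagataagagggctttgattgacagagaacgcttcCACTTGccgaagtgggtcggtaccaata
Insig1: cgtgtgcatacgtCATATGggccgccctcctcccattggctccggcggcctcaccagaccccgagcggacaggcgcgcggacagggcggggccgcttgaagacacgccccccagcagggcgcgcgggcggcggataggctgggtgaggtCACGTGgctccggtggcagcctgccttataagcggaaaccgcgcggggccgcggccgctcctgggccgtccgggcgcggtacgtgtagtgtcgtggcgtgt
For 2 synthesis genes called in neurospheres, the same window is shown with CCAAT boxes (read as ATTGG on the other strand) in capitals. They lie at chr8:64733579-64733828 (minus) for Msmo1 and chr1:169969206-169969455 (minus) for Hsd17b7, with 3 boxes each.
Msmo1: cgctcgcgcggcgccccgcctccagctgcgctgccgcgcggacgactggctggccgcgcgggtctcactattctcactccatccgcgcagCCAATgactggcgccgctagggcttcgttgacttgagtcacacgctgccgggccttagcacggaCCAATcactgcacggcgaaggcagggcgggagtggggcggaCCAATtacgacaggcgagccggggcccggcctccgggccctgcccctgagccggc
Hsd17b7: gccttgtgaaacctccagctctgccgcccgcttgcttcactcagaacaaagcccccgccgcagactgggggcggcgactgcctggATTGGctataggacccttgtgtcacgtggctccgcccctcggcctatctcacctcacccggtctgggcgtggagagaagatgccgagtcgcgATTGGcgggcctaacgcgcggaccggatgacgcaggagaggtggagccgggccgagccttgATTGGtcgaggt

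Values are MAS5 signals on a linear scale, differences are log2 of the signal plus 16, and a gene is called at a Benjamini-Hochberg adjusted p under 0.05 from limma over all genes tested. Id4 averaged 3032 ± 333 (SD, n = 6) in null cultures against 158.3 ± 42.7 (SD, n = 3) in wild-type. The labels do not say how Id4 should differ, so it is no independent check of them. In null against Olig-expressing cultures Olig1 was lower by log2 -1.61 (limma adjusted p = 2.08e-07). Olig2 was also lower there, by log2 -0.8 (limma adjusted p = 0.00279). Probe signal of both genes remained in null cultures, with Olig1 averaging 8068 ± 1020 (n = 6) and Olig2 averaging 8302 ± 2120 (n = 6). With the label Olig2 virus in null lines the Olig2 signal was not higher (6720 ± 2920 against 9168 ± 1020 with GFP, n = 3 each), although Id4 was lower by log2 -2.52. The position of the probes in the deleted or transduced sequence is not given, so this signal checks neither label, and directions for Olig2 virus rest on the labels. Array medians ran from 128.9 to 217.4. The lowest was null line 13 with GFP, whose A260/A280 of 2.83 and Gapdh 3′ to 5′ log2 ratio of 0.43 were the highest of the neurosphere arrays. In culture, the progenitor genes Sox2 and Nes were at 6614 and 5220 in wild-type lines, and Mbp, the myelin basic protein gene, was at 216.2. Xist signal varied widely among lines without virus, with means of 21650 in wild-type, 20100 in heterozygous and 8060 in null lines. It ran from 174.9 to 25793.8 in null lines. With GFP virus it ran from 161.1 to 230.4 in null and from 320.2 to 29882.4 in heterozygous lines, so it was not balanced across genotypes.

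Among cultures without GFP or Olig2 virus, null lines had more Lrpap1 and Npc2 signal and less Msmo1 signal than Olig-expressing lines. Most of the pathway was not called. Of 29 genes, 2 were higher and 1 was lower in null against Olig-expressing cultures (10.3%), where 8.32% of all 12022 genes were called either way. The median difference was log2 -0.047, against -0.0188 over all genes. By this count the group stood near the background. In bulk samples fewer cells of a type and less RNA per cell cannot be told apart.

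Among the enzymes of synthesis 1 of 17 was called. Msmo1, which removes methyl groups from lanosterol-derived sterols, read 14898.1, 9108.0 and 11198.2 in wild-type lines and 13385.1, 9897.4 and 9631.8 in heterozygous lines. The 6 null lines ran from 6765.4 to 9076.8 with a median of 7824.9. Every null line lay below every Olig-expressing line, by a narrow gap to wild-type line 3. Msmo1 was lower by log2 -0.51 ± 0.12 (SE, limma adjusted p = 0.0193). It was not called without heterozygous line 11 (-0.43, adjusted p = 0.0509) or on the dim probe set 1459627_at (-0.49, adjusted p = 0.239). Against heterozygous lines alone Msmo1 was at -0.47, without a call. With a term for Xist signal in that fit, Msmo1 was called (-0.59, limma adjusted p = 0.0081). With GFP virus its mean was higher in null lines (9474, n = 3) than in heterozygous lines (8234, n = 2), also without a call. Fdps, which makes farnesyl diphosphate at the branch to other isoprenoids, was nearest the threshold at log2 -0.34 (adjusted p = 0.0635), and was called without heterozygous line 15 (-0.40, adjusted p = 0.0412) or wild-type line 3 (-0.42, adjusted p = 0.0211). Only 3 of the 17 enzymes had a difference above 0, and their median was -0.114, which describes the direction without a test. With GFP virus the lean was the other way. There 12 of the 17 were above 0 in null against heterozygous lines, with a median of 0.18. The probe sets of some enzymes disagreed. With every probe set tested on its own, Lss gave such a case. For this lanosterol synthase, 1426913_at was lower by log2 -0.69 (adjusted p = 0.00737) while the brighter 1420013_s_at was at -0.20 (adjusted p = 0.354). For Hmgcs1, the enzyme before HMG-CoA reductase, the dim 1441536_at was lower by -0.95 (adjusted p = 0.00469) while the brightest, at a mean signal of 24834.7, was at -0.11 (adjusted p = 0.582). With the mean of their probe sets, Lss (-0.6, limma adjusted p = 0.00348) and Hmgcs1 (-0.37, adjusted p = 0.00935) were both called lower. Against wild-type lines alone that mean also called Lss (-0.63, adjusted p = 0.0107) and Hmgcs1 (-0.45, adjusted p = 0.0108). Against heterozygous lines alone it called Lss (-0.56, adjusted p = 0.0334) but not Hmgcs1.

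None of the 5 regulators was called. Insig1 read 6014.1, 4507.3 and 6059.1 in wild-type, 5635.6, 5253.6 and 5241.9 in heterozygous and 4901.4 to 6653.8 (median 5740.95) in null lines, so that the groups overlapped. Srebf1, whose product drives lipid synthesis, differed by log2 0.60 ± 0.28 (SE, adjusted p = 0.236), with 2087.3 to 4471.3 in null and 1138.6 to 3554.5 in Olig-expressing lines.

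Of the 7 transport genes 2 were called, Lrpap1 and Npc2, where 8.32% of all genes were called. Lrp1 (log2 0.73, limma adjusted p = 0.0746) and Abca1 (0.77, adjusted p = 0.167) differed by more than these 2 but were not called. With the mean of its probe sets Lrp1 was called (0.64, adjusted p = 0.0153). Lrpap1 encodes the receptor-associated protein, a chaperone of LDL receptor family members in the endoplasmic reticulum, and lies at chromosome 5, 35091490 to 35105699 (GRCm38.p6). It read 2410.2, 2248.6 and 2066.2 in wild-type and 2416.9, 2077.7 and 2035.9 in heterozygous lines, against 2465.6 to 4145.6 (median 3613.7) in null lines. No null line overlapped the Olig-expressing lines, although line 16 at 2465.6 came close to them. The difference was log2 0.66 ± 0.12 (SE, adjusted p = 0.0027), from a mean of 2209.2 to 3545.4, and it was called in each of the 12 fits that left out 1 array. Npc2, which hands cholesterol to NPC1 inside lysosomes (chromosome 12, 84754559 to 84773112), read 8921.4, 8403.4 and 8472.0 in wild-type and 8880.4, 8515.3 and 10049.5 in heterozygous lines. In null lines it ran from 9541.7 to 13542.1 (median 11472.55), and only null line 16 fell below heterozygous line 26. Npc2 was higher by log2 0.37 ± 0.08 (SE, adjusted p = 0.0105), and with the mean of its probe sets it was at 0.33 (adjusted p = 0.0877), without a call.

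Lrpap1 is read by 4 probe sets that did not move alike. The brighter pair, 1436609_a_at and 1426696_at, were higher by log2 0.66 and 0.61 (adjusted p = 0.00283 and 0.000685 when every probe set is tested on its own), and the dimmer pair, 1452148_at and 1426697_a_at, were at 0.31 and 0.14 (adjusted p = 0.143 and 0.441). The sign was the same for all 4. For Npc2, 1416901_at was higher by 0.42 (adjusted p = 0.00604) and the dim 1455768_at was at 0.32 (adjusted p = 0.241). The astrocyte marker list (9 genes) summed to 12728.7 to 37445.4 in null, 13328.9 to 17297.5 in wild-type and 10475.1 to 15554.9 in heterozygous lines, with 2 genes higher and 1 lower. The microglial list (8 genes) summed to 1179.1 to 1584.1 in null, 940.0 to 1072.8 in wild-type and 925.2 to 1014.2 in heterozygous lines, low sums of which those in null lines lay above the others. The oligodendrocyte precursor list (6 genes) summed to 1744.3 to 2965.7 in null, 3158.1 to 5627.6 in wild-type and 2913.9 to 5693.6 in heterozygous lines, and 2 of 5 tested genes were lower, Cspg4 (-1.84) and Bcas1 (-1.91). The part of these lists in these results was not tested.

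**Figure D1:**
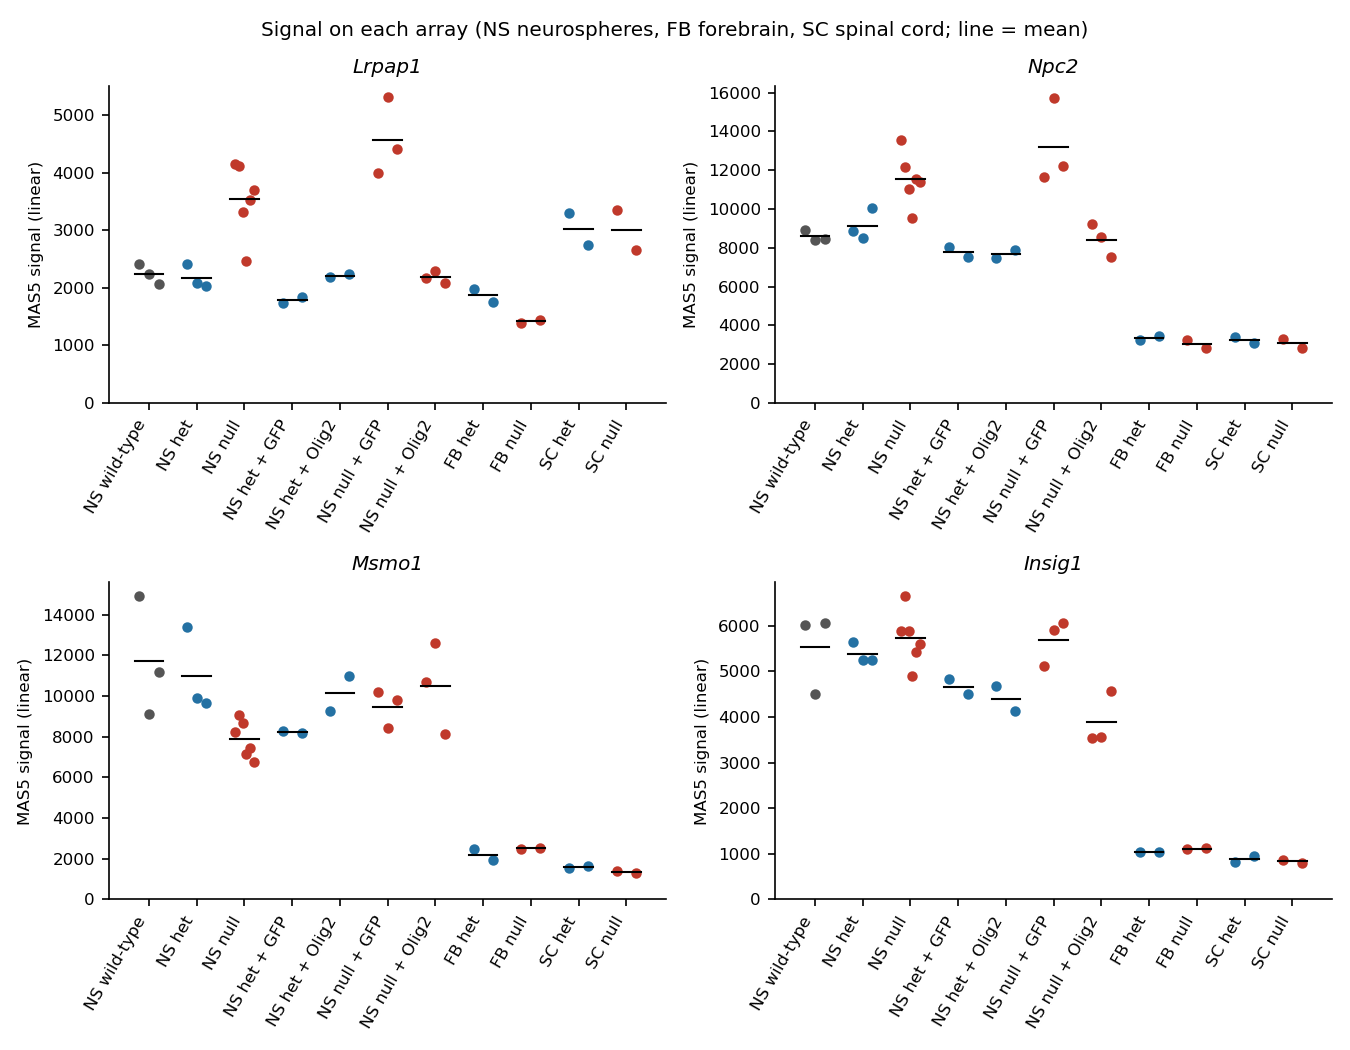
MAS5 signal (linear) on each of the 30 arrays for Lrpap1, Npc2, Msmo1 and Insig1, by group, with 1 point per array and the group mean as a line; red is null, blue heterozygous and grey wild-type, and NS, FB and SC stand for neurospheres, forebrain and spinal cord. Lrpap1 and Npc2 are high in null cultures without virus and with GFP and lower in null cultures with Olig2, and Msmo1 and Insig1 are lower in all tissue arrays than in all cultures.

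Against wild-type lines alone, where 6.70% of genes were called, the same 3 genes were called: Lrpap1 at log2 0.64 (adjusted p = 0.0152), Npc2 at 0.42 (adjusted p = 0.0209) and Msmo1 at -0.55 (adjusted p = 0.0420). Nearest of the others was Hsd17b7 at 0.62 (adjusted p = 0.149). All 3 calls depended on single arrays. The Msmo1 call was lost in 7 fits without 1 array, with -0.36 (adjusted p = 0.244) without wild-type line 2. The others left out wild-type line 20, heterozygous line 15 or null line 12, 16, 21 or 24. The Npc2 call was lost without wild-type line 2 (0.44, adjusted p = 0.0618), 3 (0.40, adjusted p = 0.0872) or 20 (0.41, adjusted p = 0.0685), and the Lrpap1 call without line 3 (0.64, adjusted p = 0.0572) or 20 (0.58, adjusted p = 0.0675). Against heterozygous lines, where 3.51% were called, Lrpap1 was higher by 0.68 ± 0.15 (SE, adjusted p = 0.0163). Lrp1, the large endocytic receptor that takes up ApoE particles and that the product of Lrpap1 chaperones, was higher by 1.11 ± 0.29 (SE, adjusted p = 0.0471). Lrp1 read 853.3, 987.0 and 440.7 in heterozygous and 1583.1, 1203.0 and 1010.0 in wild-type lines, against 1082.5 to 2249.9 in null lines, and without heterozygous line 26 its difference was 0.77 (adjusted p = 0.23). The call was also lost without heterozygous line 11 (1.23, adjusted p = 0.0967), each of null lines 12, 13 and 16, and each wild-type line. It was lost as well without the filter, with quantile normalization (adjusted p = 0.0502), with array weights and without the trend (adjusted p = 0.0943). The same held with only these groups in the fit and with a term for Xist (0.93, adjusted p = 0.0526). The null range lay above the heterozygous lines and overlapped the wild-type lines. The Lrpap1 call was lost without heterozygous line 15 (0.65, adjusted p = 0.08) or 26 (0.64, adjusted p = 0.0809). Npc2 was nearest to a call at 0.33 (adjusted p = 0.0975), and was called without null line 16 (0.38, adjusted p = 0.0302). These comparisons share the null arrays, so they are not independent.

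No member was called between heterozygous and wild-type lines. None of 29 was called by limma, against 0.0333% of all genes (4 genes), where 799 genes had an unadjusted p under 0.05. The largest difference was Lrp1 at log2 -0.78 ± 0.33 (SE, adjusted p = 0.728), whose groups did not overlap.

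Genes of related pathways were taken from lists. In null against Olig-expressing lines 8.32% of all genes were called. Of 18 tested genes for LXR, lipoproteins and their receptors, 3 were higher and 2 lower in null against Olig-expressing lines, with a median of log2 0.085. Higher were Pltp (phospholipid transfer protein, 2.03), Apoe (1.68, adjusted p = 0.0487) and Scarb2 (a lysosomal membrane protein, 0.74). Lower were Vldlr (the VLDL receptor, -1.08) and Scarb1 (an HDL receptor, -1.0). Apoe signal ran from 1100.2 to 12386.9 in null lines and from 1320.0 to 3759.3 in wild-type lines, so these overlapped. In heterozygous lines it ran from 306.1 to 461.7. Apoe was called against heterozygous lines (2.95, limma adjusted p = 0.0119) but not against wild-type lines (0.4, adjusted p = 0.777). Of 18 genes for sterol traffic and oxidation, Gramd1b was higher (0.52), and Tspo (-1.60), Fabp5 (-0.54) and Cyp46a1, the brain cholesterol hydroxylase (-0.57), were lower. None of 7 other sterol synthesis and SREBP genes, 9 isoprenoid genes or 15 fatty acid genes was called.

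With the label Olig2 virus, null lines had less Lrpap1, Npc2 and Insig1 signal than the same lines with GFP virus. Of 29 genes, 3 were lower and 0 higher, where 7.88% of all 12458 genes were called either way and 4.64% were called lower. The members' median was log2 -0.140, against 0.0285 over all genes. Members' calls either way (10.3%) stood near the background share.

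Lrpap1 read 4003.6, 5310.4 and 4417.2 with GFP in null lines 12, 13 and 14, and 2168.0, 2293.2 and 2081.4 with Olig2. Each Olig2 array lay far below each GFP array, and within the range of Olig-expressing lines without virus. Lrpap1 was lower by log2 -1.06 ± 0.12 (SE, adjusted p = 0.00128). Its difference was -0.94 (adjusted p = 0.00399) without the GFP array of line 13. Npc2 read 11646.8, 15699.4 and 12210.2 with GFP and 9230.9, 8538.8 and 7502.7 with Olig2, and the groups did not overlap. It was lower by -0.64 ± 0.13 (SE, adjusted p = 0.0146), and by -0.51 (adjusted p = 0.0347) without that GFP array, which held its highest value. All 3 tested probe sets of Npc2 were called lower, at -0.59, -0.64 and -0.77. For Lrpap1 the brighter pair was called at -1.06 and -0.93, and the dimmer pair was at -0.33 and -0.20 without a call.

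Insig1, itself an SREBP target whose product holds SCAP back, read 5106.9, 5905.3 and 6058.1 with GFP and 3542.6, 3570.9 and 4558.4 with Olig2. The groups did not overlap, with line 14 the highest of each. Insig1 was lower by log2 -0.55 ± 0.13 (SE, adjusted p = 0.0255). The call was lost without the GFP array of line 13 (-0.52, adjusted p = 0.0694), the GFP array of line 14 (-0.51, adjusted p = 0.0746) or the Olig2 array of line 12 (-0.49, adjusted p = 0.0997) or 13 (-0.50, adjusted p = 0.0936). It was also lost with quantile normalization (-0.39, adjusted p = 0.08), without the trend (adjusted p = 0.0767) and with only these groups in the fit (adjusted p = 0.0594).

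Srebf1 had the largest difference but a wide spread. It read 4575.5, 6310.6 and 2697.4 with GFP and 1549.7, 565.2 and 2577.6 with Olig2, so that line 14 hardly differed while lines 12 and 13 did. The difference was log2 -1.69 ± 0.50 (SE) and was not called (adjusted p = 0.0617), but it was called without the Olig2 array of line 14 (-2.17, adjusted p = 0.0182). None of the 17 enzymes was called. Ebp, a sterol isomerase, came nearest at -0.50 ± 0.15 (SE, adjusted p = 0.0582), and Hsd17b7, a sterol ketone reductase, was at -0.65 ± 0.21 (SE, adjusted p = 0.0785). With arrays scaled to their 75th percentile, Ebp (-0.62), Hsd17b7 (-0.77) and Srebf1 (-1.81) were also called, which made 6 genes. That scaling moved the median of all genes by -0.116, and the split of all calls from 404 higher and 578 lower to 303 and 1025.

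The same null lines without virus gave a second control for the Olig2 arrays, which both comparisons share. The GFP arrays are not in this difference, but they were in the fit and so entered its estimate of the spread. Of 29 genes 4 were lower and 0 higher, where 4.54% of genes were called either way and 2.77% were called lower. The members' median was log2 -0.287, against 0.0286 over all genes. Lrpap1 was lower by -0.81 ± 0.12 (SE, adjusted p = 0.00301), Insig1 by -0.66 ± 0.12 (SE, adjusted p = 0.00625) and Npc2 by -0.54 ± 0.12 (SE, adjusted p = 0.0201). With the mean of their probe sets Lrpap1 was at -0.41 (adjusted p = 0.0551) and Npc2 at -0.43 (adjusted p = 0.0648), neither called. For Insig1 the values without virus in lines 12, 13 and 14 were 5875.3, 6653.8 and 5886.9, all above the Olig2 arrays, and the call stood in all 15 fits that left out 1 array. Hsd17b7 read 2663.5, 2418.4 and 1820.7 without virus and 844.3, 1064.2 and 1579.7 with Olig2, and was lower by -1.0 ± 0.20 (SE, adjusted p = 0.0123). Srebf1 came next at -1.24 (adjusted p = 0.16), and was called without the Olig2 array of line 14 (-1.72, adjusted p = 0.0418). The other probe sets of Hsd17b7 were not called, at -0.61 (1417871_at), -0.44 (1448865_at) and -0.02 (1440057_at). The Hsd17b7 call was lost without null line 12 (-0.89, adjusted p = 0.0648) or 13 (-0.96, adjusted p = 0.062) or the Olig2 array of line 12 (-0.80, adjusted p = 0.0558) or 13 (-0.97, adjusted p = 0.0556). That call was also lost with the mean of its probe sets, without cross-hybridising or variant probe sets, and with only these groups in the fit. The Npc2 call was lost without null line 12 (-0.46, adjusted p = 0.0978) or 13 (-0.54, adjusted p = 0.0759) or the Olig2 array of line 13 (-0.55, adjusted p = 0.0658) or 14 (-0.46, adjusted p = 0.0552).

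In heterozygous lines no member was called with Olig2 against GFP virus, where 0% of genes were called (limma, 0 of 12458 genes, 484 with an unadjusted p under 0.05). Lrpap1 read 1735.0 and 1841.6 with GFP and 2191.9 and 2236.9 with Olig2, a difference of log2 0.31 ± 0.15 (SE, adjusted p = 1). That is the opposite sign to the null lines. The difference between the 2 effects of Olig2 was -1.36 ± 0.20 (SE, adjusted p = 0.0404), and Lrpap1 was the only member called (Npc2 came next at -0.62, adjusted p = 0.32), where 0.0562% of genes (7) were called. With the line as a block it was -1.36 with adjusted p = 0.069, and it was lost in 7 of 10 fits that left out 1 array, with adjusted p from 0.0719 to 0.205 in those fits. For the Lrpap1 probe set 1426696_at the same term was -0.96 (adjusted p = 0.125). Abcg1, which exports cholesterol to HDL, read 46.4 and 74.5 with GFP and 281.9 and 156.8 with Olig2 in heterozygous lines, low signals that differed by 1.59 ± 0.42 (SE, adjusted p = 1).

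Between genotypes with GFP virus, null lines had more Lrpap1 and Npc2. Without virus, against heterozygous lines, Lrpap1 was called and Npc2 was not (0.33, adjusted p = 0.0975). With GFP virus these 2 of 29 were called, where 1.70% of genes were called. Lrpap1 was higher by log2 1.34 ± 0.14 (SE, adjusted p = 0.000837), from a mean of 1788.3 to 4577.1. Npc2 was higher by 0.75 ± 0.14 (SE, adjusted p = 0.0251), with 8047.5 and 7524.8 in heterozygous lines, all below the null lines. The Npc2 call was lost without heterozygous line 11 (0.80, adjusted p = 0.141) or 15 (0.70, adjusted p = 0.223), fits that leave 1 heterozygous array, assumed to vary like the other groups. Without the GFP array of null line 13, Lrpap1 was at 1.23 (adjusted p = 0.00195) and Npc2 at 0.61 (adjusted p = 0.042). Abcg1 at 1.55 ± 0.38 (SE, adjusted p = 0.0704) was nearest to a call. This comparison shares its null arrays with that of Olig2 against GFP. GFP virus against no virus in the same lines called no member by limma, where 0.00779% of genes (1) were called and 1545 had an unadjusted p under 0.05. Its largest member difference was Abcg1 at -1.17 ± 0.26 (SE, adjusted p = 0.177).

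**Figure D2:**
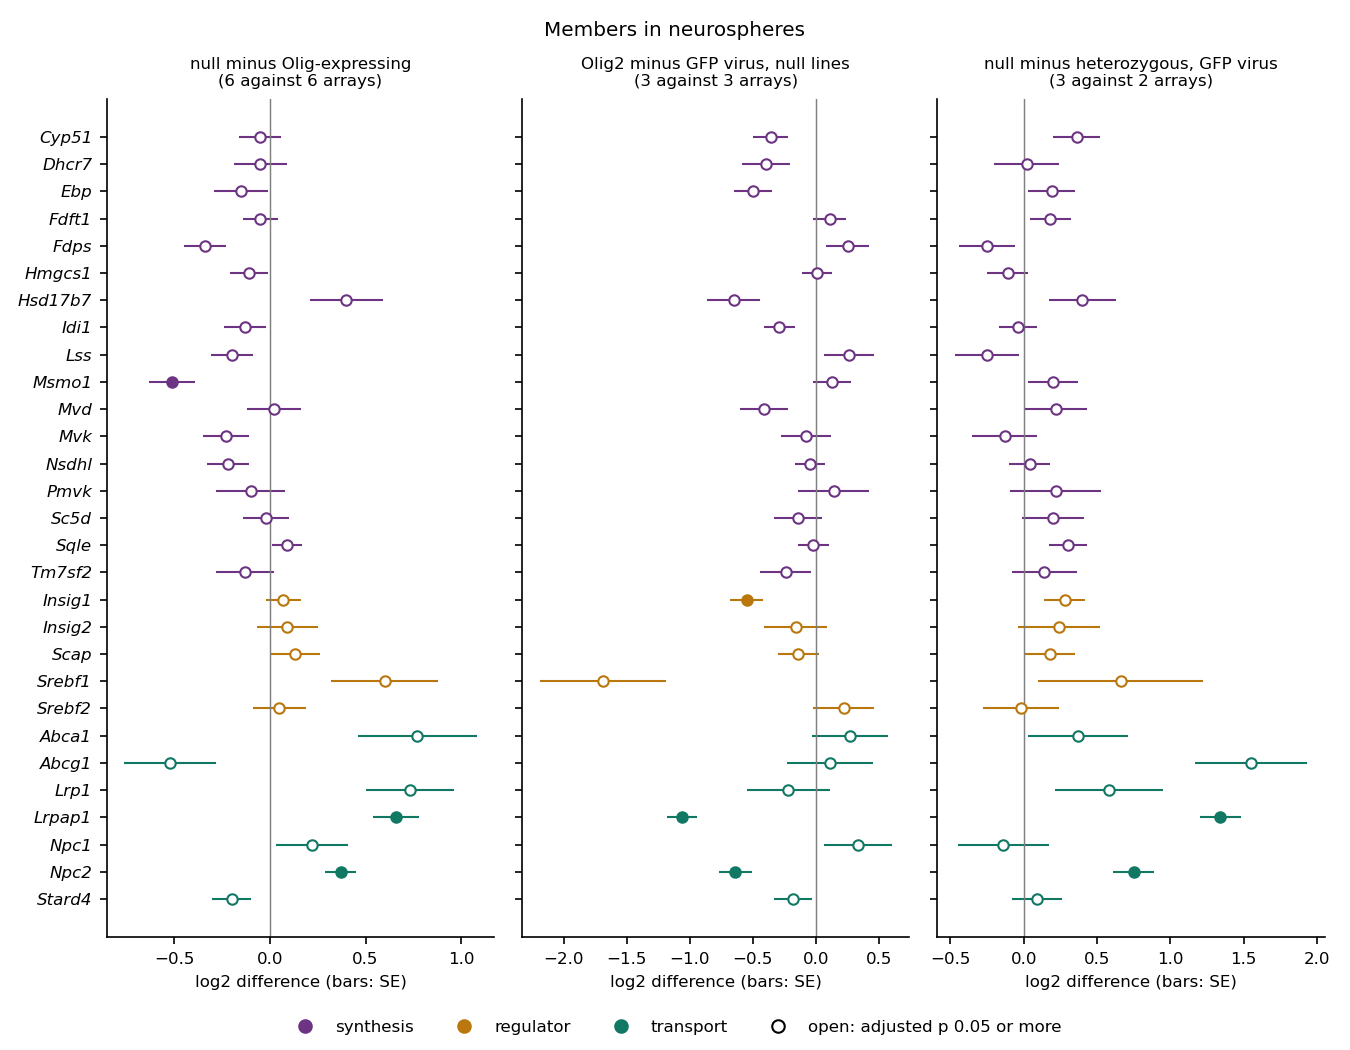
Log2 differences (points) with SE (bars) of the 29 genes for null against Olig-expressing cultures, Olig2 against GFP virus in null lines and null against heterozygous lines with GFP virus; filled points have an adjusted p under 0.05 and colours mark the role. Lrpap1 and Npc2 are filled in all 3 panels, negative for Olig2 against GFP virus and positive in the other panels, and of the 17 enzymes only Msmo1 is filled, for null against Olig-expressing cultures.

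**Figure D3:**
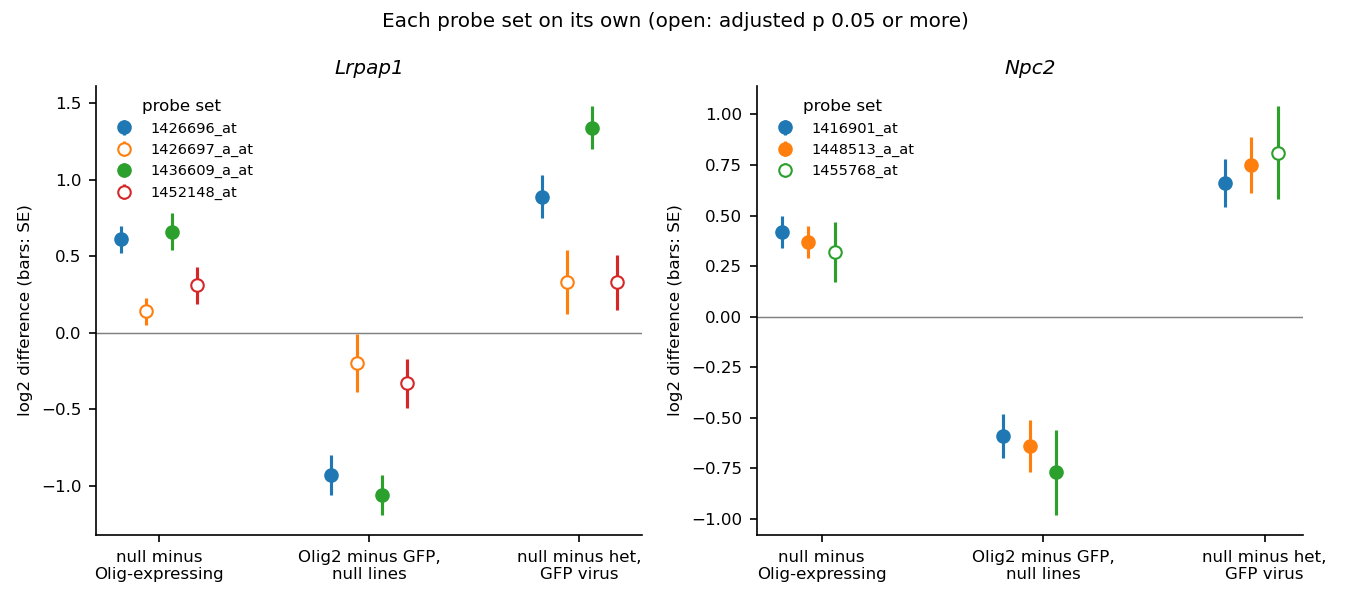
Log2 difference with SE of each tested probe set of Lrpap1 (4) and Npc2 (3) in the same comparisons, filled where the adjusted p over all probe sets is under 0.05. The probe sets of Npc2 lie close together, while for Lrpap1 1436609_a_at and 1426696_at lie farther from 0 than 1452148_at and 1426697_a_at.

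Most genes of the related lists were not called with Olig2 against GFP virus in null lines, where 7.88% of all genes were. In that comparison 3 of 19 LXR and lipoprotein genes were higher and 4 lower (median log2 0.285). Vldlr was higher by 1.45 and Scarb1 by 0.85, and Scarb2 was lower by -1.02 and Abca3, a lipid transporter, by -0.72. Of 15 fatty acid genes Acsl4 (-0.61) and Fasn, fatty acid synthase (-0.90, adjusted p = 0.0439), were lower. Of 9 isoprenoid genes Pggt1b (-0.61) and Ggps1 (-0.59), which act in the making and attachment of geranylgeranyl groups, were lower, and of 17 traffic genes Fabp5 was higher (0.40). None of 7 other sterol synthesis and SREBP genes was called. Against no virus in the same lines Scarb2 (-0.79), Acsl4 (-0.77), Scd1 (-0.63) and Ggps1 (-0.58) were lower and Vldlr was higher (1.05). Between genotypes with GFP virus Scarb2 (1.15) and Pltp (2.14) were higher in null lines. The astrocyte markers summed to 16094.6 to 28318.4 with GFP and 23188.2 to 25764.1 with Olig2 in null lines, and 3 of 9 were higher with Olig2. The oligodendrocyte precursor markers summed to 2439.3 to 4358.7 with GFP and 3391.4 to 4431.1 with Olig2, ranges that overlapped, and against no virus Bcas1 was higher by 2.19. The part of these lists in these results was not tested.

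In the embryo no member was called between genotypes, with 2 arrays per group. In forebrain none of 29 was called by limma (0.0405% of genes called, 5 genes, and 782 with an unadjusted p under 0.05), and in spinal cord none (0.130%, 16 genes, and 742). The difference between the 2 tissues also gave 0 members, with 0% of genes called (0 of 12342 genes, 705 with an unadjusted p under 0.05), and Fdps nearest at log2 -0.56 (adjusted p = 0.759). Lrpap1 in forebrain read 1390.1 and 1441.5 in null and 1983.6 and 1762.9 in heterozygous embryos, log2 -0.40 ± 0.13 (SE, adjusted p = 0.669). Its probe sets pointed both ways there, with 1452148_at at 0.41 (adjusted p = 0.698). In spinal cord it read 3348.4 and 2662.9 against 3294.5 and 2739.7, which overlapped.

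In spinal cord the members nearest to a call were Abca1, which loads cholesterol onto ApoE, at log2 0.39 ± 0.11 (SE, adjusted p = 0.508), and Dhcr7, which makes cholesterol from its immediate precursor, at -0.43 ± 0.14 (SE, adjusted p = 0.558). Abca1 read 3472.0 and 3237.3 in null and 2322.9 and 2804.3 in heterozygous cord. Dhcr7 read 1125.2 and 1111.2 in null and 1409.7 and 1631.1 in heterozygous cord. Neither overlapped between genotypes, but with 2 arrays a side this is no call. In the same cords Mbp fell from 3046 ± 490 to 389.2 ± 136 (SD, n = 2 each; log2 -2.95, adjusted p = 0.0013), and the summed myelin markers (9 genes) went from 7560.7 to 9314.5 in heterozygous to 3310.1 to 3497.5 in null embryos.

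Spinal cord and forebrain differed in genes of all 3 roles, in both directions. Of 29 genes, 8 were higher and 7 lower in spinal cord (51.7%), where 40.0% of all 12342 genes were called, and the members' median was log2 -0.061. That share stood near the background. Among the enzymes, Fdft1 (squalene synthase, -0.74), Fdps (-0.70), Msmo1 (-0.67), Sqle (squalene epoxidase, -0.50) and Hmgcs1 (-0.19) were lower in cord. Ebp (0.82), Hsd17b7 (0.56), Tm7sf2 (a sterol reductase, 0.42) and Pmvk (phosphomevalonate kinase, 0.37) were higher. Without cross-hybridising or variant probe sets Hsd17b7 was at 0.15 (adjusted p = 0.333). The other 8 of 17 enzymes were not called, nearest among them Mvk (mevalonate kinase, 0.39, adjusted p = 0.072).

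Fdft1 read 3966.0 and 3873.8 in null and 3637.4 and 4106.4 in heterozygous forebrain. In cord it read 2231.6 and 2347.3 in null and 2347.6 and 2388.0 in heterozygous embryos. All 4 cords lay below all 4 forebrains (adjusted p = 7.04e-06). With the mean of its probe sets, Fdft1 was at -0.18 (adjusted p = 0.306). Among regulators Srebf2, the SREBP most tied to sterols, was lower (-0.45, adjusted p = 0.00627) as was Insig1 (-0.32, adjusted p = 0.0197), while Srebf1 was higher (0.46, adjusted p = 0.0152). Among transport genes Abca1 (0.90), Lrpap1 (0.87) and Lrp1 (0.18) were higher. Abca1 read 1519.9, 1642.2, 1533.7 and 1529.7 in forebrain and 3472.0, 3237.3, 2322.9 and 2804.3 in cord, so the cords were all higher. With the mean of its probe sets Abca1 was at 0.01 (adjusted p = 0.984), as the dim 1421839_at was at -0.55 (adjusted p = 0.154). For Lrpap1 1426696_at was higher by 0.45 (adjusted p = 0.0031), and the dimmer pair was at 0.07 and -0.02.

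Calls among the smaller differences depended on single arrays. Pmvk, Lrp1, Hmgcs1, Hsd17b7, Srebf1 and Insig1 each lost the call without at least 1 array, and between 10 and 14 members were called when 1 array was left out. With the embryo as a block Lrp1 (adjusted p = 0.0527) and Pmvk (adjusted p = 0.0587) were not called, which left 13. Cell type markers moved widely with the tissue: all 9 astrocyte genes, 5 of 5 tested oligodendrocyte precursor genes, 4 of 6 myelin genes (Cldn11 at 3.46, Mbp at 2.12, Cnp at 1.87 and Ugt8a at 0.89), 6 of 10 vessel and meninges genes and 5 of 6 microglial genes were higher in cord. Other lists went both ways. Of 10 neuron genes 5 were higher and 3 lower, and of 8 progenitor genes 3 were higher and 3 lower. Of 5 tested Schwann cell and sensory ganglion genes 3 were higher and 1 lower. The Gapdh 3′ to 5′ log2 ratio was 0.04 to 0.37 in cord and -0.22 to -0.07 in forebrain. The part of either was not tested. Across all genes 40.0% were called between cord and forebrain. Of the LXR and lipoprotein list, 8 of 19 were higher and 3 lower, with Apoe (2.45), Apod (2.09) and Pltp (1.57) higher and Lrp8 (-0.67), a receptor for ApoE and reelin, lower. Of 15 fatty acid genes 5 were higher and 3 lower, with Acsl4 at 1.20, Fasn at -0.55, Fads2 at -0.58 and Acaca at -0.46. Of 19 traffic genes 5 were higher and 5 lower, with Nceh1 at 1.34, Cav1 at 0.81, Gramd1a at -0.57 and Gramd1b at -0.54. Of 9 isoprenoid genes Fnta (0.72) and Ggps1 (0.36) were higher and Dhdds lower (-0.66), and of 7 other sterol genes Erlin2 was lower (-0.28).

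The cultures had far higher signal for the synthesis pathway than forebrain of the same Olig label. Of 29 genes, 21 were higher and 2 lower in heterozygous neurospheres than in heterozygous forebrain (79.3%), where 50.9% of all 13672 genes were called and 26.5% were called higher. The members' median difference was log2 1.2, against -0.0475 over all genes. Of the 17 enzymes 14 were higher and 0 lower, with a median of 1.53. Culture, age, EGFRvIII and the cell types present differ together here and cannot be told apart, and the cultures lack Ink4a/Arf, whose genotype the tissue labels do not give. The neuron markers (10 genes) summed to 76350.6 to 78543.6 in this forebrain and to no more than 10036.5 in these cultures, and the progenitor markers (8 genes) to 28031.1 to 28902.1 and 71663.8 to 75308.7.

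Cyp51, the lanosterol demethylase, read 5218.3, 4822.9 and 5181.2 in culture and 1122.7 and 1202.3 in forebrain, log2 2.11 ± 0.15 (SE, adjusted p = 1.25e-09). Msmo1, which acts at a later step, read 13385.1, 9897.4 and 9631.8 against 2480.1 and 1920.3, log2 2.30 ± 0.18 (SE, adjusted p = 3.87e-09). Both stood well clear of forebrain in every culture, although the dim Msmo1 probe set 1459627_at was at 0.37 (adjusted p = 0.415). The other higher enzymes ranged from 0.65 for Mvd to 1.76 for Hsd17b7, with Fdps at 1.74, Ebp at 1.69, Sc5d at 1.66, Idi1 and Dhcr7 at 1.58, Tm7sf2 at 1.53, Nsdhl at 1.41, Lss at 1.20, Sqle at 1.05 and Mvk at 1.03. For Lss the probe set 1426913_at was at 0.34 without a call, and without forebrain of embryo 4 Mvd was at 0.50 (adjusted p = 0.139). Hmgcs1 (0.08), Pmvk (0.07) and Fdft1 (0.25) were not called. For Hmgcs1 3 of its other 4 probe sets were called higher, at 0.36 to 1.09, which the brightest probe set did not show. For Sc5d, a sterol desaturase, 1451457_at was at 1.66, and 1434520_at and 1424709_at were at -0.27 and 0.07 without a call.

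Insig1 had the largest difference of all members, log2 2.36 ± 0.13 (SE, adjusted p = 7.16e-11), with 5635.6, 5253.6 and 5241.9 in culture and 1032.1 and 1042.6 in forebrain. Scap was higher by 0.81, Insig2 by 0.70 and Srebf1 by 0.99 (adjusted p = 0.0469), and the Srebf1 call was lost without any of 11 arrays, with 0.58 (adjusted p = 0.234) without heterozygous line 26. Insig2 was at 0.52 (adjusted p = 0.182) without forebrain of embryo 4. Srebf2 was at 0.25 on its brighter probe set and at 1.29 (adjusted p = 5.74e-05) on 1426744_at. The import and egress genes went different ways. Stard4, a carrier of sterol between membranes, was higher by 1.91, Npc2 by 1.44 and Npc1, the lysosomal membrane partner of Npc2, by 1.31. Lrp1 was lower by -2.04 ± 0.32 (SE, adjusted p = 2.61e-05) and Abcg1 by -1.55 ± 0.33 (SE, adjusted p = 0.000609). Lrp1 read 853.3, 987.0 and 440.7 in culture and 2990.2 and 3046.5 in forebrain, and Abca1 at -0.99 was not called (adjusted p = 0.0635).

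**Figure D4:**
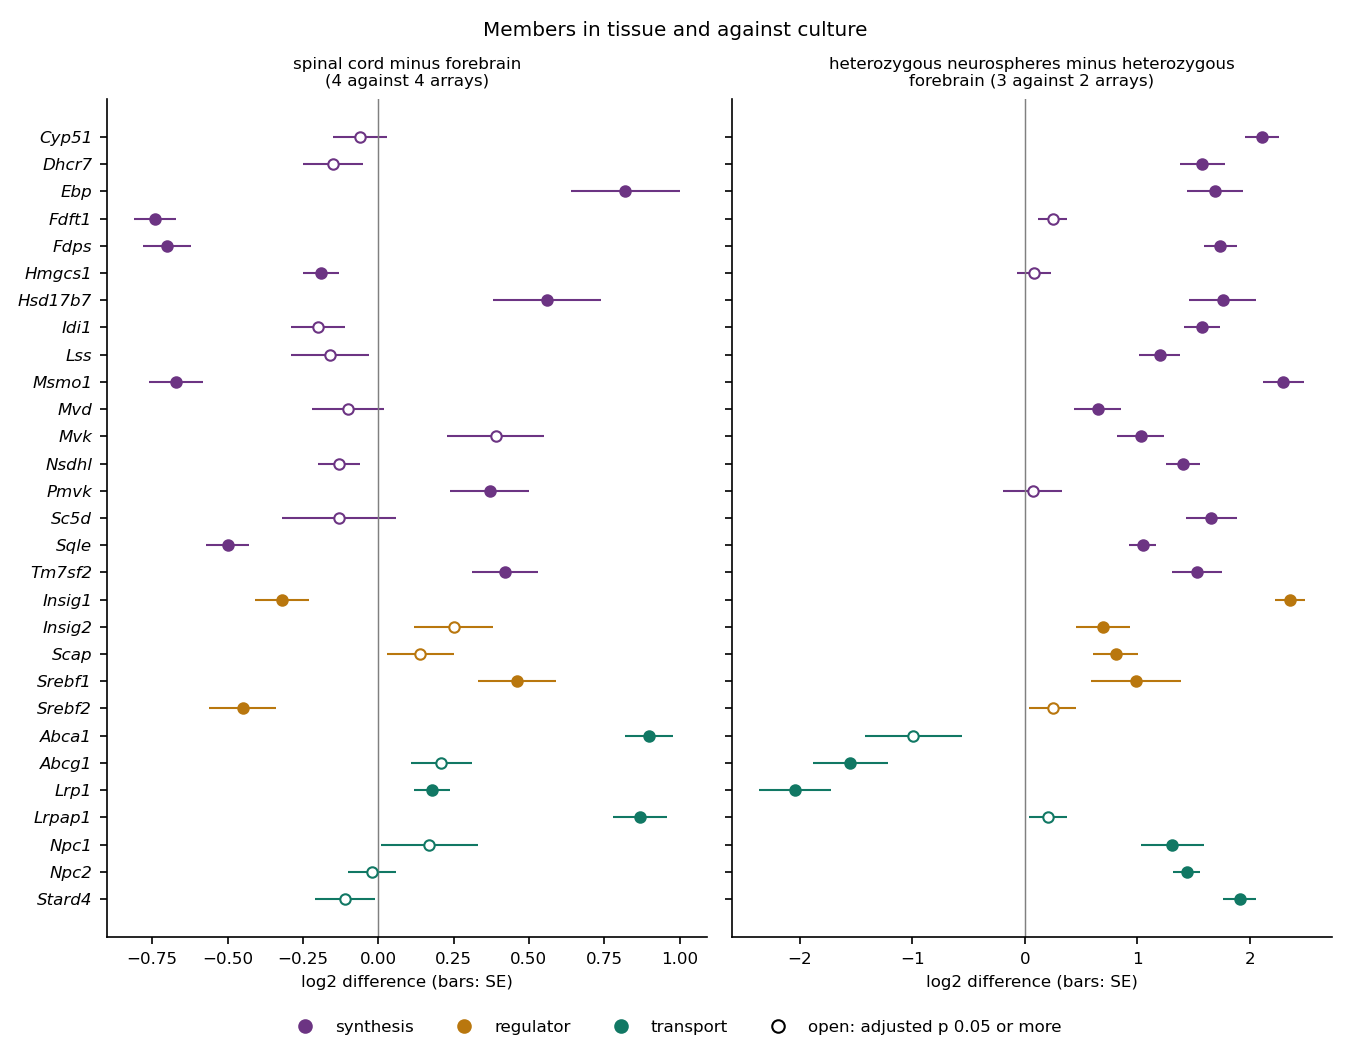
Log2 differences with SE of the 29 genes for spinal cord against forebrain (4 against 4 arrays) and for heterozygous neurospheres against heterozygous forebrain (3 against 2 arrays), filled where the adjusted p is under 0.05, with colours for the role. The left panel has called genes on both sides of 0, and in the right panel 21 genes are called above 0 and Lrp1 and Abcg1 below it.

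In culture against forebrain 50.9% of all genes were called, and 26.5% were called higher. Of 15 fatty acid genes 11 were higher and 1 lower (median log2 0.971), led by Scd1, the stearoyl-CoA desaturase, at 2.57, with Elovl1 at 2.29, Fads1 at 1.37 and Scd2 at 0.95. Of 7 other sterol synthesis and SREBP genes, Tmem97 (2.74), Mbtps1, an SREBP protease (0.84), and Erlin1 (0.77) were higher, and Mbtps2 was lower (-0.45). Of 9 isoprenoid genes Ggps1 (0.65) and Coq2 (0.54) were higher. Of 19 LXR and lipoprotein genes 3 were higher and 9 lower, with Clu at -2.20, Apod at -1.88, Scarb1 at 2.34 and Abca7 at 2.14, and of 19 traffic genes 3 were higher and 6 lower, with Stard3 at 1.51, Gramd1b at -1.82, Cyp46a1 at -1.57 and Cav1 at -3.66.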

How the data were processed

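The authors deposited 1 table of linear intensity values made with MAS5, per the submitters' processing notes, which name no version. In the values themselves each array averages 500 once the lowest and highest 2% of probe sets are left out. Of 45101 probe sets, 34945 had 1 gene symbol, 932 several and 9224 none in the platform annotation, which can be old. Each gene was read from its probe set with the highest log2 signal, averaged across the 30 arrays. A gene was tested where its signal was at or above the array median in enough arrays to fill the smallest group, which all 29 members passed in all 15 comparisons. Differences of log2(signal + 16), which understate changes of low genes, were tested two-sided with limma 3.58.1 (lmFit, eBayes with trend) in R 4.3.3 with data.table (version 1.17.8), and figures were drawn with python and matplotlib 3.10.9. P-values were adjusted over all genes by Benjamini-Hochberg, and the pipeline was tested on simulated data. Precision is limited by how many arrays there are. The labels give all arrays 1 hybridization day. Titles give the same line or embryo number across groups, so these arrays share a line or embryo, yet their deviations correlated at only -0.14 to 0.13; the fits are unpaired, with the number as a block as an alternative.

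The members and lists were chosen with earlier results of these data known. Every member called in a comparison was named, with the member closest to the threshold; other probe sets where they differed; and up to 4 called genes of smallest p per list (Apoe in addition). Markers of 9 cell types were summed. Alternatives were pseudocounts 1 and 64, no filter, quantile and 75th percentile scaling, the mean of all probe sets, no cross-hybridising or variant probe sets, array weights, no trend, fits of the groups compared only, a term for Xist, the block, and each array left out. Every probe set tested on its own was added after seeing the data. Promoters came from RefSeq (GRCm38.p6).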

Additional observations from a re-analysis of the deposited data

Results flagged for a closer look

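Fdps in null line 16 read 9509.2, far below the other null lines, of which the next read 11666.1 and the highest 12938.8 (Dixon ratio 0.664, taken on the log2 scale). It was the 1 gene of 29 tested in the 6 null lines with such an array, and chance gives about 1 in 20.

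The effect of Olig2 against GFP virus on Lrpap1 differed between null and heterozygous lines, by log2 -1.36 (limma, adjusted p = 0.0404), with 3 null and 2 heterozygous lines per virus. With the mean of all 4 probe sets it was -0.66 (adjusted p = 0.304).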

How the results depend on the processing

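For the gene differences called, 1230 of 1367 values under the alternatives kept the direction and the call, 137 lost the call, and 0 reversed. For differences called only under some alternative, 557 of 603 values kept the direction and stayed without a call. The other 46 gained a call in the same direction or changed direction without one. Of the alternatives planned beforehand, the mean of all probe sets gave 5 called members in null against Olig-expressing lines (Npc2 not among them), 0 for the difference between the effects of Olig2, 1 in null against heterozygous lines with GFP and 1 for Olig2 against no virus. Without the trend there were 1 in null against wild-type, 1 in null against heterozygous, 1 for Olig2 against GFP in null lines, 0 for the difference between effects and 1 with GFP. Null against heterozygous lines gave 1 without the filter and 1 with those groups only, which also gave 1 with GFP. The 75th percentile scaling gave 6 for Olig2 against GFP in null lines, and the difference between effects was at 0 without cross-hybridising or variant probe sets and with the line as a block. With the block the count was 3 for Olig2 against GFP in null lines, 4 against no virus and 13 for cord against forebrain, and no member but Lrpap1, Lrp1 and Pmvk changed its call. Leaving out 1 array gave 2 to 5 members in null against Olig-expressing, 0 to 3 against wild-type, 0 to 2 against heterozygous, 2 to 5 for Olig2 against GFP in null lines, 0 to 1 for the difference, 1 to 2 with GFP, 2 to 4 for Olig2 against no virus, 10 to 14 for cord and 20 to 25 for culture against forebrain. Over all genes Olig2 against GFP in null lines gave 982 calls, 384 without the trend, 567 with those groups only and 304 to 1171 without 1 array; null against heterozygous with GFP gave 212, and 93, 123 (mean of probe sets), 326 (array weights) and 41 to 304; Olig2 against no virus gave 583, and 335, 383 and 221 to 794. With the mean of probe sets Lrpap1 was not called in null against heterozygous lines (0.39, adjusted p = 0.0549) or for Olig2 against no virus (-0.41, adjusted p = 0.0551). The causes were not tested.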
